A study of Mus musculus with 12 samples.

Results

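A set of 10 transcription factors that specify the neural crest was followed through whole mouse embryos that differed in Cited2 genotype and in the mother's diet: Foxd3, Sox10, Sox9, Snai1, Twist1, Ets1, Msx1, Msx2, Dlx2 and Zic1. Every probe of the Illumina mouse BeadChip annotated to 1 of these 10 symbols was taken, whatever its values, which gave 17 of the 45281 probes on the array. The 12 embryos were collected at 8.5 days post coitum, each on 1 array, in 4 groups of 3. These groups were Cited2 -/- embryos of mothers on a high-fat diet, Cited2 -/- embryos of mothers on a control diet, wildtype embryos of high-fat mothers and wildtype embryos of control mothers. They are called high-fat knockout, control-diet knockout, high-fat wildtype and control-diet wildtype here. All were of the C57BL6/J strain and all had a Cited2 heterozygous mother and father. The mothers started their diet at 6 weeks of age, were mated 8 weeks later and kept the diet in pregnancy. Each embryo was freed of yolk sac and allantois and its somites were counted before freezing. The labels give the embryos' genotype and name no tissue-restricted deletion. The sources used here do not give litter, sex or somite number, so the p-values measure the spread between these embryos. The number that opens each title is shared by 1 knockout and 1 wildtype embryo of the same diet, and what it marks, a litter included, is not stated.

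The neural crest arises at the border of the neural plate, leaves the neural tube by an epithelial to mesenchymal transition and gives rise to the skeleton of the face, peripheral neurons and glia, pigment cells and the outflow septum of the heart. Signals from the ectoderm and mesoderm switch on border genes such as Msx1, Msx2, Zic1 and the Dlx genes, and these are followed by specifiers such as Foxd3, Snai1, Twist1, Ets1, Sox9 and Sox10. At the stage sampled, cranial crest cells are leaving the neural folds. Cited2 is a transcriptional coactivator that binds CBP and the AP-2 transcription factors, which are themselves expressed in the crest, and mice without it have malformations of the heart and the nervous system. The series asks how genotype and maternal diet act on embryonic transcripts. Several of these 10 genes are also used outside the crest, Sox9 in the somites and notochord, Ets1 in endothelium and Snai1 in mesoderm. In whole embryos, fewer cells of a type and less RNA per cell cannot be told apart.

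Because Cited2 works with AP-2 proteins, the promoter windows of the crest factors were searched for the AP-2 motif GCCNNNGGC, which reads the same on both strands. RefSeq windows of 250 bases before and 50 bases after the start were at hand for 7 of the 10 genes, on build GRCm38.p6, and Sox10, Sox9 and Ets1 had none. The motif was in 2 of these 7 windows and in 16.59% of the 32851 promoter windows of the same table. Both windows that hold it are printed 5′ to 3′ on the gene's strand with the motif in capitals. The Snai1 window lies at chr2:167537945-167538244 on the plus strand and the Zic1 window at chr9:91365719-91366018 on the minus strand.
Snai1: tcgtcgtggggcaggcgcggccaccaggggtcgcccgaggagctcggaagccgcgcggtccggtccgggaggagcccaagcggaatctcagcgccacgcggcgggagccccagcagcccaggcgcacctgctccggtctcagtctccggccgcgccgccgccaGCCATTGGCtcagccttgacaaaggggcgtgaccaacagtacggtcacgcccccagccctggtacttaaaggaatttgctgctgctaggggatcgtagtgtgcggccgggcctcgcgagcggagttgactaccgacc
Zic1: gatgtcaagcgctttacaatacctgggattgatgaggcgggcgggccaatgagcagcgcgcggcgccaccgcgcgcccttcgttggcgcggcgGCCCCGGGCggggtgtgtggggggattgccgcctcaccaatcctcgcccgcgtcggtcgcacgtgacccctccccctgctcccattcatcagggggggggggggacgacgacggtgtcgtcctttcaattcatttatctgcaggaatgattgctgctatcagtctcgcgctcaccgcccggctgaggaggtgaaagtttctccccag
The motif began 87 bases before the start of Snai1 and 157 bases before that of Zic1. The E-box CACCTG, or CAGGTG on the other strand, to which Snail-family repressors bind, was in the windows of Snai1, Msx1 and Dlx2 and in 20.21% of all windows. ACAAAG, or CTTTGT on the other strand, a core recognised by Sox proteins, was in the Snai1 window alone among the 7 and in 18.71% of all windows. These matches describe letters in a window and were not tested against binding.

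Between 16584 and 18853 probes were detected per array at a detection p-value under 0.01, and 19595 probes detected on at least 3 arrays were tested. The targeted gene checked the labels: the brightest Cited2 probe averaged 4.99 ± 0.92 in the knockout embryos and 11.40 ± 0.34 in the wildtype embryos on the normalized log2 scale (SD, n = 6 each). It was detected in 1 of the 6 knockout embryos, high-fat knockout replicate 3, and in all 6 wildtype embryos. The arrays fell into 2 sets of 6 by their bead-to-bead variation, set A at 18.0% to 20.5% and set B at 21.4% to 23.8%. Knockout and wildtype embryos were split evenly, 3 and 3 in either set, while high-fat embryos numbered 4 in set A but 2 in set B. Values within each set are given below.

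Of the 17 probes, 7 were detected on all 12 arrays and 7 on none. The 10 probes detected on at least 3 arrays stood for 7 genes, namely Sox10, Sox9, Snai1, Twist1, Ets1, Msx1 and Zic1. Foxd3, Msx2 and Dlx2 had no detected probe in any embryo, and nothing can be said of a difference in them. A level of one probe is not set against that of another here, since probes differ in how strongly they hybridise.

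The border genes gave the widest range of detectability. Msx1 (chr5:37820491-37824585), a homeobox repressor downstream of BMP signalling, had bead signals of 1865.6, 2378.5 and 2467.4 at its brighter probe in the high-fat knockouts, against 1850.5, 1710.3 and 2186.7 in the high-fat wildtypes. They were 2313.6, 1693.7 and 2065.8 in the control-diet knockouts, against 2014.4, 1952.7 and 2711.7 in the control-diet wildtypes. All 4 groups overlapped. The genotype difference averaged over diets was 0.06 ± 0.12 (log2, knockout minus wildtype, ± SE) and the diet difference averaged over genotypes was 0.11 ± 0.12 (high-fat minus control). The 95% interval of the genotype difference ran from −0.19 to 0.32, which bounds what this number of arrays could show. The dimmer Msx1 probe gave 0.13 ± 0.15 for genotype, with 0.28 within array set A and −0.07 within set B.

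Zic1 (chr9:91358058-91365768), a zinc finger factor of the dorsal neural plate, was close to the limit of detection. Its only probe had bead signals of 8.8, −0.5 and 9.8 in the high-fat knockouts and 18.5, 29.7 and 12.2 in the control-diet knockouts. The signals were 8.9, 6.0 and 23.5 in the high-fat wildtypes and 2.2, 48.1 and 43.0 in the control-diet wildtypes. The probe was detected in 0 of 3 high-fat knockouts, 1 of 3 control-diet knockouts, 1 of 3 high-fat wildtypes and 2 of 3 control-diet wildtypes, and all 4 arrays that detected it belonged to set B. Most of its readings were thus at background, and its fitted differences, −0.48 for averaged diet and −0.19 for averaged genotype on the log2 scale, do not measure the size of a change. The genotype value had opposite signs in the array sets, 0.27 within A but −0.50 within B. No fold is given, since the probe was not detected in any high-fat knockout and the bound it allows was under 1.

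Msx2 (chr13:53466881-53472780), the paralogue of Msx1, had signals between −7.1 and 10.5, with a smallest detection p-value of 0.08972. Dlx2 (chr2:71543408-71546754), a homeobox gene of crest cells that enter the pharyngeal arches, had signals between −1.7 and 16.5 at one probe and between −6.0 and 11.2 at the other. The smallest detection p-value of Dlx2 was 0.04714.

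Among the specifiers, Foxd3 (chr4:99656299-99658671), a forkhead factor of premigratory crest, was not detected either. Its probe had signals between −12.6 and 8.2 over the 12 embryos and a smallest detection p-value of 0.15324. Low signal at a single probe does not show that the transcript was absent.

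Sox10 (chr15:79154913-79164490), an HMG box factor that marks migrating crest and is kept in glia and pigment cells, varied most among the tested genes of the set. Its bead signals were 153.4, 42.7 and 25.3 in the high-fat knockouts, against 191.4, 273.7 and 518.5 in the high-fat wildtypes. They were 618.1, 507.4 and 154.3 in the control-diet knockouts, against 461.5, 756.1 and 479.0 in the control-diet wildtypes. Every high-fat knockout lay below every high-fat wildtype, and high-fat knockout replicates 2 and 3 were the lowest of all 12 embryos. On the control diet the genotypes overlapped, since replicates 1 and 2 of the knockouts were among the highest embryos and replicate 3 was the lowest of its diet.

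On the log2 scale the high-fat knockouts averaged 6.33 ± 1.39 and the high-fat wildtypes 8.50 ± 0.33 (SD, n = 3 each). The difference was −2.17 ± 0.67 (SE), a level 4.49-fold lower in the knockouts (unadjusted p = 0.00737, adjusted p = 1 with limma over 19595 probes). The control-diet knockouts averaged 8.57 ± 1.30 and the control-diet wildtypes 9.02 ± 0.33, a difference of −0.45 ± 0.67. The SD among knockout embryos was larger than among wildtype embryos on either diet. The probe was detected in every embryo, but high-fat knockout replicate 3 at 5.22 was close to the lowest detected signal of its array, 5.13. High-fat knockout replicate 2 was at 5.88, and the lowest detected signal of its array was 5.23. The size of differences that use these embryos, the 4.49-fold included, is therefore rough.

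For maternal diet, the high-fat knockouts differed from the control-diet knockouts by −2.23 ± 0.67 (unadjusted p = 0.00613, adjusted p = 0.711). These 2 groups overlapped, since high-fat knockout replicate 1 at 7.89 was above control-diet knockout replicate 3 at 7.07. The high-fat wildtypes differed from the control-diet wildtypes by −0.52 ± 0.67. The difference between the genotype effects on the 2 diets was −1.71 ± 0.95 (unadjusted p = 0.0959), so these data do not show that the effect depended on diet.

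Averaged over diets, Sox10 differed by −1.31 ± 0.47 in knockout minus wildtype embryos (unadjusted p = 0.0175, adjusted p = 1.00). Averaged over genotypes, it differed by −1.38 ± 0.47 in high-fat minus control embryos (unadjusted p = 0.0134, adjusted p = 0.410). Within array set A the genotype difference was −0.47 and within set B −2.26, and control-diet knockout replicate 3 and high-fat knockout replicate 3 are both in set B. The diet difference was −1.54 within set A and −1.60 within set B. Leaving out 1 embryo at a time moved the high-fat genotype difference between −2.94, without high-fat knockout replicate 1, and −1.61, without high-fat knockout replicate 3.

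**Figure D1:**
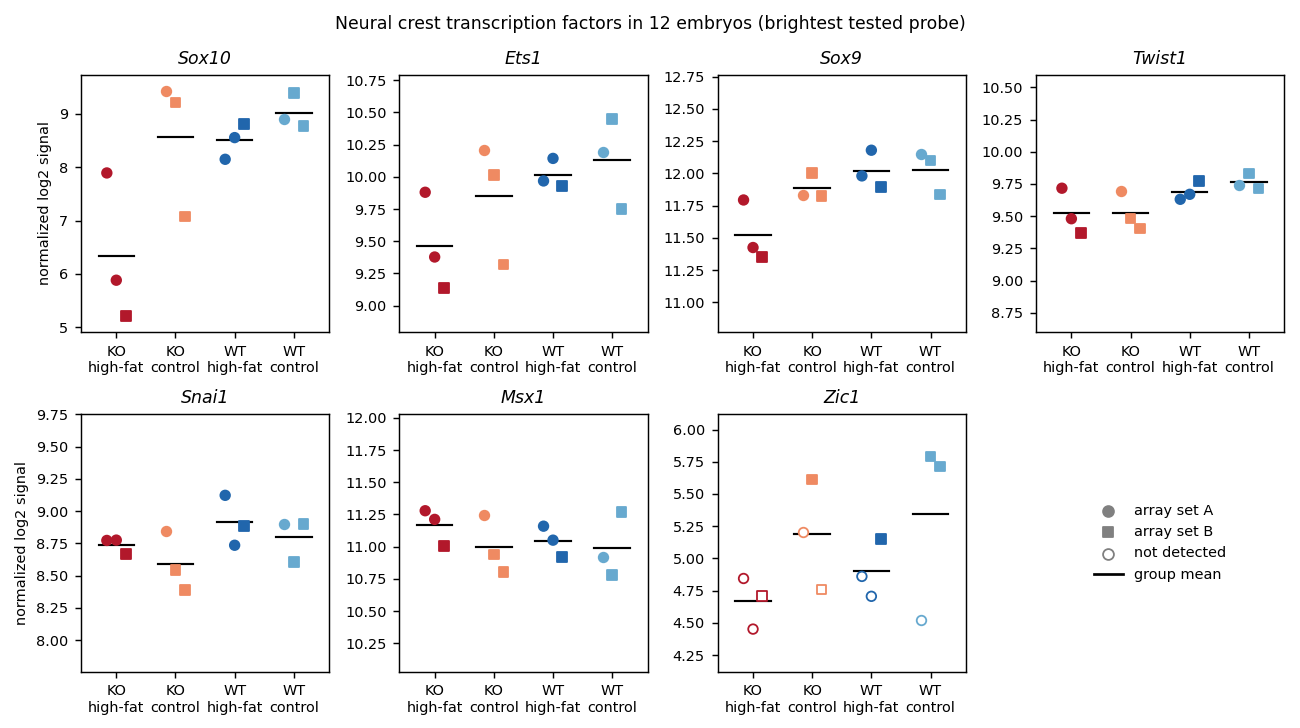
Normalized log2 signal (vertical axis, each panel with its own range of at least 2 log2 units) of the 7 detected crest factors at their brightest tested probe, for each embryo in the 4 groups (horizontal axis), with circles for array set A, squares for set B, open symbols where the probe was not detected and a bar at the group mean. The high-fat knockouts lie below the high-fat wildtypes without overlap for Sox10, Ets1 and Sox9, and the Sox10 panel spans 5.22 to 9.42.

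Sox9 (chr11:112782210-112787757), the other SoxE gene of the set and an early crest specifier, was also lowest in the high-fat knockouts at its brighter probe, over a smaller range. Its bead signals were 2737.9, 2756.9 and 3141.3 in the high-fat knockouts, against 3414.1, 3828.2 and 4260.4 in the high-fat wildtypes. They were 3513.8, 3532.8 and 4192.0 in the control-diet knockouts, against 4818.8, 4643.2 and 4012.7 in the control-diet wildtypes. The high-fat knockouts were the 3 lowest embryos of the 12, below the control-diet knockouts and below the high-fat wildtypes without overlap.

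The Sox9 difference on the high-fat diet was −0.49 ± 0.15, or 1.41-fold lower in the knockouts (unadjusted p = 0.00739, adjusted p = 1). On the control diet it was −0.14 ± 0.15. High-fat minus control was −0.36 ± 0.15 in knockouts (unadjusted p = 0.0350, adjusted p = 0.788) and −0.01 ± 0.15 in wildtypes. Averaged over diets, the genotype difference was −0.32 ± 0.11 (unadjusted p = 0.0127), with −0.39 within array set A and −0.30 within set B. The second Sox9 probe was dim, with signals between 13.3 and 133.7, and was detected on 9 arrays. At that probe the diet difference averaged over genotypes was −0.78 ± 0.27 (unadjusted p = 0.0153, adjusted p = 0.410), −0.35 within set A and −0.63 within set B, and the genotype difference was −0.37 ± 0.27. The probes thus shared the sign of both differences but not their relative size.

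Ets1 (chr9:32636241-32757820), an ETS factor of cranial crest and endothelium, had 4 probes, of which 1 was detected on all 12 arrays and 3 on none. The undetected probes had signals between −13.0 and 10.6, while the detected one ranged from 650.9 to 1549.4. Signals of the detected probe were 679.2, 650.9 and 667.3 in the high-fat knockouts, against 785.8, 888.8 and 1119.8 in the high-fat wildtypes. They were 1121.7, 895.7 and 753.5 in the control-diet knockouts, against 1188.3, 1549.4 and 933.1 in the control-diet wildtypes. The high-fat knockouts were again the lowest group and did not overlap the high-fat wildtypes, while the control-diet genotypes overlapped.

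On the log2 scale the Ets1 difference was −0.55 ± 0.26 on the high-fat diet (unadjusted p = 0.0569) and −0.28 ± 0.26 on the control diet. Averaged over diets it was −0.42 ± 0.18 (unadjusted p = 0.0432, adjusted p = 1.00), with −0.21 within array set A and −0.61 within set B. The diet difference averaged over genotypes was −0.25 ± 0.18 (unadjusted p = 0.198). Since Ets1 rests on 1 of its 4 probes, a second reading of the gene was not at hand.

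Twist1 (chr12:33957671-33959831), a helix-loop-helix factor needed in cranial mesenchyme, had log2 signals of 9.72, 9.48 and 9.37 in the high-fat knockouts, against 9.63, 9.67 and 9.77 in the high-fat wildtypes. The control-diet knockouts had 9.69, 9.48 and 9.40, against 9.74, 9.83 and 9.72 in the control-diet wildtypes. Here the genotypes overlapped with high-fat mothers and not with control mothers, where the gap lay between 9.69 and 9.72. The genotype difference was −0.17 ± 0.13 with high-fat mothers, −0.24 ± 0.13 with control mothers and −0.20 ± 0.09 averaged over diets (unadjusted p = 0.0504, adjusted p = 1.00). It was −0.05 within array set A and −0.37 within set B. The difference between the genotype effects on the 2 diets was 0.07 ± 0.19 (unadjusted p = 0.728 with limma), so these data do not show that the effect depended on diet. The diet difference averaged over genotypes was −0.04 ± 0.09.

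Snai1 (chr2:167538195-167542814), the repressor of cadherin genes at the epithelial to mesenchymal transition, was measured by a brighter probe with log2 signals from 8.39 to 9.12. The knockout embryos averaged 8.67 ± 0.17 and the wildtype embryos 8.86 ± 0.17 (SD, n = 6 each), and the groups overlapped. The genotype difference was −0.19 ± 0.11 (unadjusted p = 0.108) and the diet difference 0.13 ± 0.11. At the dimmer probe, detected on 9 arrays, the genotype difference was −0.004 ± 0.15.

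Across the 10 tested probes, none passed an adjusted p of 0.05 in any of the 7 comparisons. With limma's array weights in place of equal weights, Sox10 (−2.35, adjusted p = 0.0135), the brighter Sox9 probe (−0.67, adjusted p = 0.00646) and Ets1 (−0.67, adjusted p = 0.0340) passed for genotype on the high-fat diet, where 1325 of all probes then passed. Under those weights Sox10, the dimmer Sox9 probe and Zic1, which was detected on 4 arrays only, passed for diet averaged over genotypes, where 6128 of all probes did. Few probes of the whole array passed either. Averaged over diets, 14 probes of all tested passed for genotype (0.0714%), and averaged over genotypes none passed for diet (0%). For genotype within a diet, 3 passed with high-fat mothers (0.0153%) and 8 with control mothers (0.0408%). For diet within a genotype and for the interaction, 0% passed in each case.

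At an unadjusted p under 0.05, the members were counted against all probes by direction. Averaged over diets, 3 of 10 member probes were lower in knockouts, those of Sox10, Sox9 and Ets1, where 1.79% of all tested probes were. That count was 5 with the array set as a block or without control-diet knockout replicate 1, with the dimmer Sox9 probe and Twist1 added under the block, and 2 with the title number as a block or without high-fat knockout replicate 2. On the high-fat diet alone 2 of 10 were lower in knockouts, Sox10 and Sox9, against 1.90% of all, and on the control diet 0 of 10, against 0.985%. Averaged over genotypes, 2 of 10 were lower on the high-fat diet, Sox10 and the dimmer Sox9 probe, against 4.86% of all. That count was 4 under median scaling or without control-diet knockout replicate 3, and 1 among probes detected on all arrays. In knockouts alone 2 of 10 were lower on the high-fat diet, against 2.58%, and in wildtypes 0 of 10, against 2.03%. The wildtype count was 2 without control-diet wildtype replicate 1. In the interaction 0 of 10 were lower, against 0.536% of all. No member probe was higher at this level in any comparison. The share of all probes that was higher was 1.56% for averaged genotype, 1.47% for genotype on the high-fat diet and 0.638% on the control diet. It was 6.95% for averaged diet, 3.57% for diet in knockouts, 2.13% for diet in wildtypes and 0.725% for the interaction.

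Groups failed to overlap, with knockouts lower, at 3 of 10 member probes on the high-fat diet, where 3.67% of all tested probes did so. On the control diet this was so of Twist1 alone, 1 of 10, against 2.78% of all. Between diets, Sox9 alone did so in knockouts, 1 of 10 with the high-fat embryos lower, against 4.30% of all, and 0 of 10 did so in wildtypes, against 3.64%. Over 6 embryos against 6, no member separated the genotypes or the diets, against 0.163% and 0.209% of all probes that did so with the knockout or high-fat embryos lower. The member probes share 7 genes and 12 embryos, so these counts are not independent readings.

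The genotype difference averaged over diets was negative at 8 of 10 member probes, with a median of −0.20, where 50.1% of all tested probes were negative. Both Msx1 probes were positive. The diet difference averaged over genotypes was negative at 6 of 10, where 44.7% of all tested probes were, with a median of −0.11 beside 0.03 over all. Both Snai1 probes and both Msx1 probes were positive for diet.

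**Figure D2:**
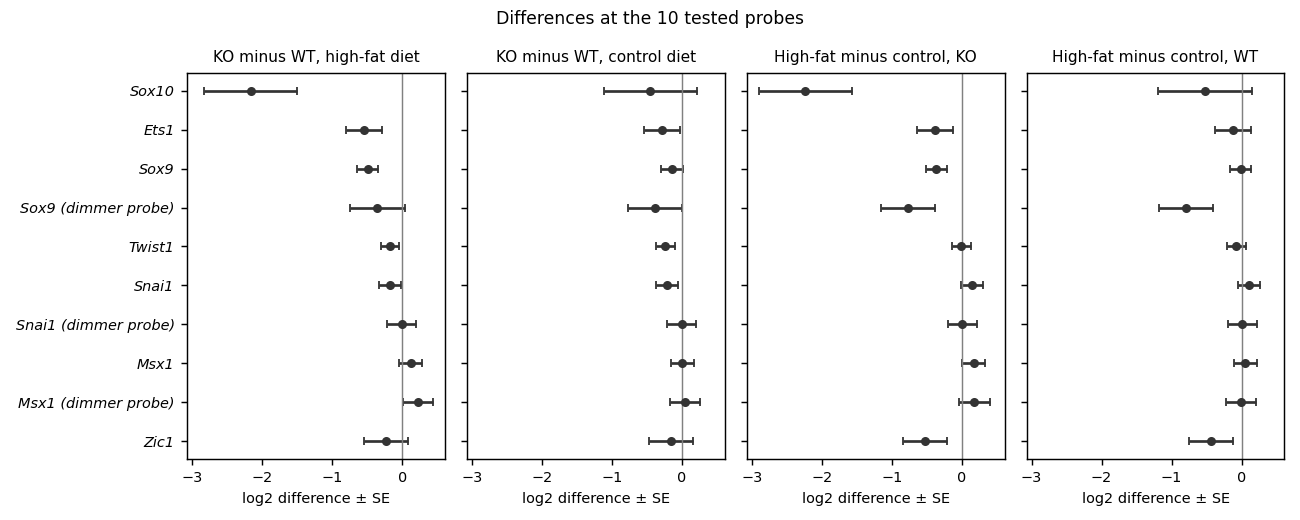
Log2 difference ± SE (horizontal axis) at each of the 10 tested probes (vertical axis) for knockout minus wildtype with high-fat mothers and with control mothers, and for high-fat minus control in knockouts and in wildtypes. Sox10 reaches −2.17 and −2.23 in the 2 panels that set the high-fat knockouts against another group and stays at −0.45 and −0.52 in the others.

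Over the 12 embryos, 21 pairs of the 7 tested genes were correlated at their brightest probes, with permutation p-values of 100000 draws and Benjamini-Hochberg adjustment over the pairs. The draws permuted all 12 embryos without regard to the 4 groups. A group difference that 2 genes share therefore also lowers their p-value. Sox10 and Ets1 were related most closely, with Pearson's r = 0.906 (permutation p = 0.00011, adjusted 0.00231) and Spearman's rho = 0.874 (adjusted permutation p = 0.00798). Leaving out the 2 embryos farthest from the Sox10 median gave r = 0.823, and r was 0.986 within array set A and 0.907 within set B. Ets1 and Sox9 followed with r = 0.839 (adjusted permutation p = 0.00756) and rho = 0.795 (adjusted permutation p = 0.0281), and r = 0.630 without the 2 farthest embryos.

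Sox10 and Sox9 had r = 0.847 (adjusted permutation p = 0.00866) but rho = 0.655 (adjusted permutation p = 0.0973), and r was 0.379 without the 2 embryos farthest from the Sox10 median, so the relation over all 12 rests on those embryos. Within the array sets, which hold 1 of those 2 each, r was 0.773 for A and 0.938 for B. Twist1 and Ets1 had r = 0.823 (adjusted permutation p = 0.00866) with rho = 0.643 (adjusted permutation p = 0.0973). Twist1 and Sox10 had r = 0.757 (adjusted permutation p = 0.0211) with rho = 0.650 (adjusted permutation p = 0.0973). Msx1 was not related to Sox10 in this way, with r = −0.098 and rho = −0.207, and neither was Snai1, with r = 0.199 and rho = 0.126. After each group's mean was removed, r was 0.887 for Sox10 and Ets1, 0.718 for Ets1 and Sox9 and 0.616 for Sox10 and Sox9. It was 0.802 for Twist1 and Ets1, 0.890 for Twist1 and Sox10, 0.386 for Msx1 and Sox10 and 0.291 for Snai1 and Sox10. These values after removal were not tested. All these pairs share arrays and their normalization.

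The genes most like Sox10 over the embryos, after the mean of each array set was removed and among 10763 other genes, were Actc1 (r = 0.990), Tfap2b (r = 0.985) and Emcn (r = 0.980). Actc1 encodes cardiac actin, Tfap2b the AP-2 factor beta of neural crest and surface ectoderm, and Emcn endomucin of endothelium. The Tfap2b differences at its brightest probe were −1.82 ± 0.59 for knockout minus wildtype on the high-fat diet and −0.26 ± 0.59 on the control diet. Those of Emcn were −1.04 ± 0.35 and −0.28 ± 0.35, and those of Actc1 −0.86 ± 0.31 and −0.20 ± 0.31, in the same order. None of these passed the adjusted threshold. Since the 3 genes were chosen for their likeness to Sox10 over the same embryos, like differences follow from the choice and are no separate support. The Tfap2b probe was not detected in high-fat knockout replicate 3.

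For Ets1 the closest genes were Wnt8b (r = 0.945), Bgn (r = 0.945) and Adcy4 (r = 0.944), and for Sox9 Hp1bp3 (r = 0.922), Rasl12 (r = 0.912) and Tdrkh (r = 0.907). For Twist1 they were Vezf1 (r = 0.916), Npr3 (r = 0.904) and Tcf21 (r = 0.895), and for Snai1 Lmf1 (r = 0.943), Twf2 (r = 0.912) and 4930533K18Rik (r = 0.899). For Msx1 they were Ddx51 (r = 0.916), Rgs5 (r = 0.914) and Ggcx (r = 0.907). For Zic1 they were Lat2 (r = 0.897), Inka1 (r = 0.896) and Zfp664 (r = 0.888), whose r without removing the set means was 0.303, 0.504 and 0.249 in that order. These are the best of many genes over 12 arrays and are given as a description.

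**Figure D3:**
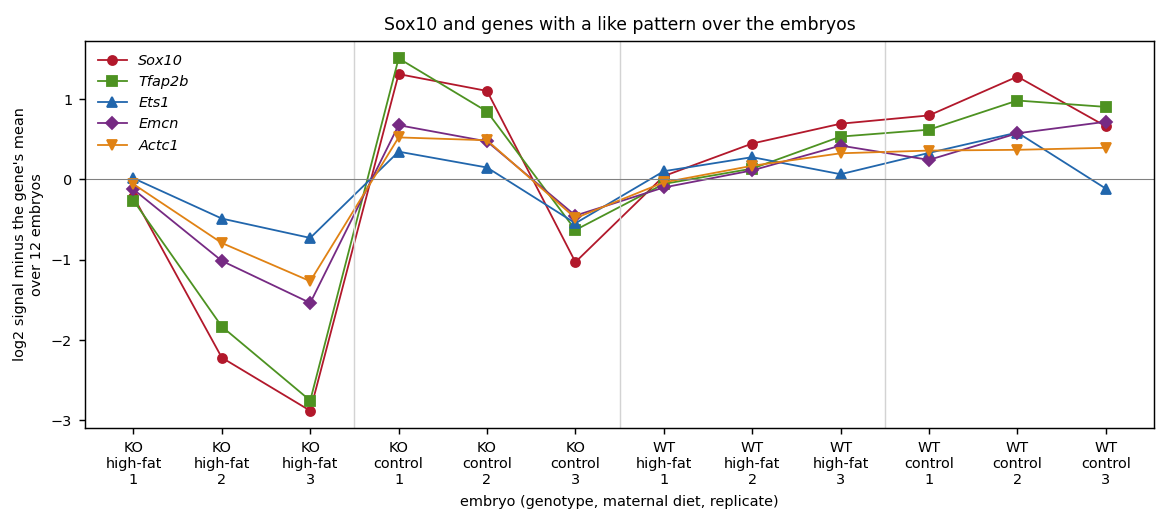
Log2 signal of Sox10, Tfap2b, Ets1, Emcn and Actc1 minus each gene's mean over the 12 embryos (vertical axis), by embryo (horizontal axis). The lines dip together at high-fat knockout replicates 2 and 3 and at control-diet knockout replicate 3, where Sox10 had log2 signals of 5.88, 5.22 and 7.07. Tfap2b, Emcn and Actc1 were chosen for their likeness to Sox10 over these embryos, so their shared dip follows from the choice.

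Markers of other tissues differed between these embryos too, and their part in the Sox10, Sox9 and Ets1 differences was not tested. The mean log2 signal over 7 tested heart muscle genes lay between 7.57 and 8.33 in the high-fat knockouts and between 8.42 and 9.28 in the high-fat wildtypes. It lay between 8.29 and 9.38 in the control-diet knockouts and between 9.12 and 9.32 in the control-diet wildtypes. Actc1, Myl7 and Myl2 were the brightest of them. The genotype difference averaged over diets was negative at 6 of 7, where 50.1% of all tested probes were negative, and 0 passed. Over the 7 tested endothelial genes the mean lay between 6.82 and 7.33 in the high-fat knockouts, 7.11 and 7.51 in the control-diet knockouts, 7.23 and 7.36 in the high-fat wildtypes and 7.24 and 7.51 in the control-diet wildtypes, with Flt1, Tek and Emcn the brightest.

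The yolk sac had been removed, and 13 tested markers of its endoderm were still read at different levels. Their mean log2 signal ranged from 8.06 to 10.03 in the high-fat knockouts, 7.75 to 9.54 in the control-diet knockouts, 7.22 to 9.21 in the high-fat wildtypes and 7.09 to 8.62 in the control-diet wildtypes. All 13 had a positive genotype difference averaged over diets, with a median of 0.68, and 0 passed. Apom, Dab2 and Apoa1 were the brightest. High-fat knockout replicate 3 and control-diet knockout replicate 3, both the lowest in Sox10 of their groups, were the highest in this list at 10.03 and 9.54. The 4 tested neural tube genes, Sox2, Nes and Hes5 the brightest, lay between 6.84 and 7.33 in the high-fat knockouts and between 7.07 and 7.39 in the high-fat wildtypes. They lay between 7.25 and 7.49 in the control-diet knockouts and between 7.05 and 7.54 in the control-diet wildtypes. The 5 tested markers of paraxial mesoderm, from which somites form, had a negative genotype difference averaged over diets at all 5. Meox1, Tcf15 and Tbx6 were the brightest, and 1 of the 5, Meox1, passed. Primitive blood genes, Hbb-bh1, Hba-x and Hbb-y the brightest, had a negative genotype difference at 5 of 5. Trophoblast genes, Plac1 and Prl2c2, had a positive one at 2 of 2, and 0 of either list passed. Of all tested probes, 50.1% had a negative genotype difference averaged over diets. The genes of a marker list share a tissue and the same 12 embryos, so the counts of signs are not independent readings.

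The wider crest programme was read from 5 lists of 70 other genes, 55 of which had a tested probe. None of the 55 passed in any comparison. At an unadjusted p under 0.05, 5 of 55 were lower and 0 higher in knockouts averaged over diets, beside 1.79% and 1.56% of all tested probes. For diet averaged over genotypes, 7 of 55 were lower and 8 higher on the high-fat diet, beside 4.86% and 6.95%.

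Of the other specifiers, 11 were tested, with a median genotype difference of −0.01 and a median diet difference of −0.10. Tfap2b differed by −1.04 ± 0.41 for genotype (unadjusted p = 0.0278) and by −1.41 ± 0.41 for diet (unadjusted p = 0.00542, adjusted p = 0.401), the largest sizes in the list. Its probe was not detected in high-fat knockout replicate 3, so these sizes rest in part on a value at background. Snai2, the partner of Snai1 at the crest transition, differed by −0.74 ± 0.34 for diet (unadjusted p = 0.0494), and Rxrg, a retinoid receptor, by 0.75 ± 0.26 (unadjusted p = 0.0135). For genotype, Id1, a helix-loop-helix inhibitor, differed by 0.12 ± 0.09 and Rxrg by 0.20 ± 0.26.

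Of the border genes, 6 were tested, with a median diet difference of 0.20 and 1 of 6 negative, where 44.7% of all tested probes were. Tfap2c, an AP-2 factor of the border, was higher on the high-fat diet at its brightest probe, by 0.32 ± 0.09 (unadjusted p = 0.00490, adjusted p = 0.401). There the diets did not overlap over 6 embryos against 6, as at 0.265% of all probes with high-fat embryos higher. At its other tested probes, which differed by 0.37 ± 0.15 and 0.35 ± 0.12, the diets overlapped. Dlx3 differed by 0.42 ± 0.13 for diet and Msx3, a dorsal neural tube gene, by −0.72 ± 0.25. For genotype the median of the 6 was −0.04, with Tfap2c at 0.17 ± 0.09, Dlx3 at 0.18 ± 0.13 and Gbx2, a homeobox gene of the hindbrain border, at −0.13 ± 0.13.

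Of the inducing signals, 8 of 10 tested genes were negative for genotype, where 50.1% of all tested probes were, with a median of −0.12. Fgf8, a growth factor of ectoderm and mesoderm, differed by −0.39 ± 0.12 for genotype (unadjusted p = 0.00606, adjusted p = 0.966), the Notch ligand Dll1 by −0.28 ± 0.13 and Wnt3a by −0.27 ± 0.15. For diet 3 of 10 were negative, beside the 44.7% of all, with Chrd, the BMP antagonist chordin, at 0.56 ± 0.16 (unadjusted p = 0.00429, adjusted p = 0.401), Wnt3a at 0.41 ± 0.15 and Bmp7 at 0.29 ± 0.12.

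Among 17 tested genes of migration and later crest function the medians were −0.04 for genotype and −0.06 for diet. Crabp1, a retinoic acid binding protein of cranial crest and hindbrain, had the smallest unadjusted p among the crest genes for diet. It differed by −0.69 ± 0.12 for diet (unadjusted p = 0.00012, adjusted p = 0.309) and by −0.37 ± 0.12 for genotype (unadjusted p = 0.0103). Sema3c, a semaphorin that guides cardiac crest, differed by −0.71 ± 0.18 for diet (unadjusted p = 0.00240, adjusted p = 0.401), at a mean log2 signal of 5.65 near the detection limit. Crabp2 differed by −0.27 ± 0.10 for diet. For genotype, Kit, the receptor of pigment cell precursors, differed by 0.23 ± 0.12 and Ngfr, a neurotrophin receptor of crest cells, by −0.29 ± 0.17.

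Among 11 tested genes of crest-derived mesenchyme, 8 were negative for genotype, beside 50.1% of all tested probes, with a median of −0.20. Prrx1, a homeobox gene of craniofacial mesenchyme, differed by −0.44 ± 0.15 (unadjusted p = 0.0125, adjusted p = 1.00) and Hoxa2, which patterns the second arch, by −0.32 ± 0.12 (unadjusted p = 0.0244). Lhx8, a LIM homeobox gene of the jaw arch, differed by 0.16 ± 0.09 for genotype. For diet, Dlx6, a pharyngeal arch gene, differed by 0.44 ± 0.18, Barx1 of the arch mesenchyme by 0.34 ± 0.17 and Hoxa2 by −0.25 ± 0.12.

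**Figure D4:**
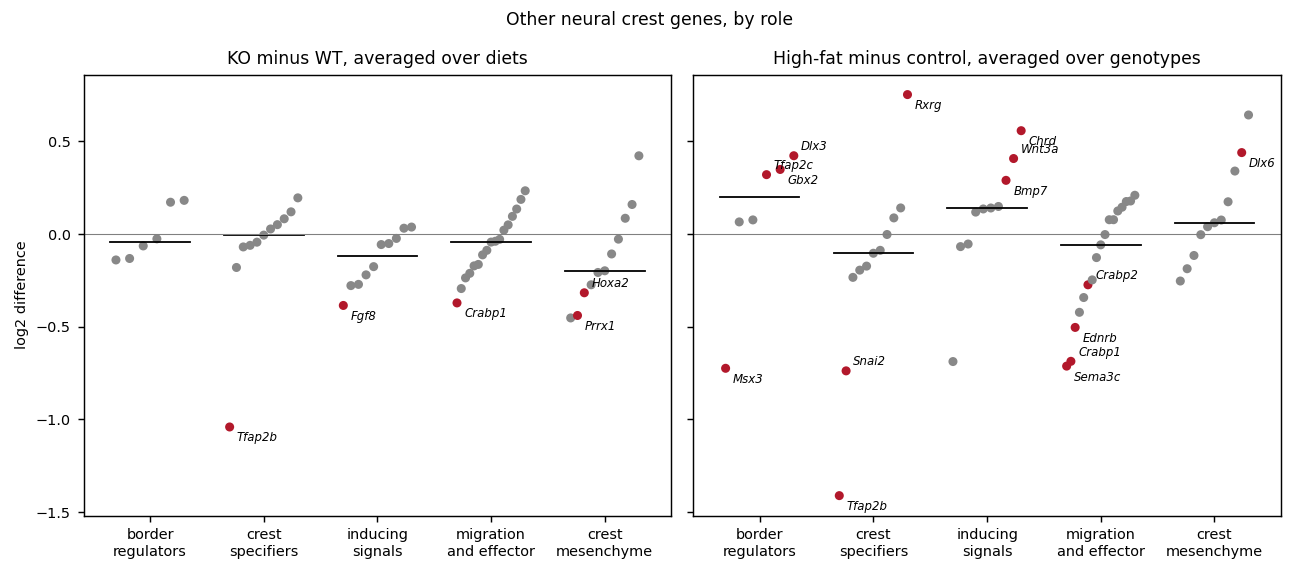
Log2 difference (vertical axis) of the 55 tested other crest genes in 5 lists by role (horizontal axis), for knockout minus wildtype averaged over diets and for high-fat minus control averaged over genotypes, with a bar at each list's median and genes at an unadjusted p under 0.05 named and in red. Tfap2b is the lowest point of both panels, at −1.04 and −1.41, and no gene passed the adjusted threshold.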

How the data were processed

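Total RNA of 12 whole embryos was biotin-labelled and hybridised to 1 BeadChip each, and the samples were grouped by the diet and genotype in their labels. The authors exported a bead intensity per probe from BeadStudio 3.2.6, per the submitters' processing notes. It was below 0 at dim probes, so a background had been subtracted, with settings not stated in the labels. The deposited detection p-value, the detection score, a fraction, and the number of beads per probe came with it, per the file headers. The authors' deposited log2 table, whose column medians were 4.97 to 5.03 and whose columns ranked probes as each array's signal did, served as an alternative. Its normalization and centring are unknown.

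Background correction and quantile normalization were done with neqc of limma 3.58.1 (R 4.3.3, offset 16), which uses the detection p-values. Log2 signals of the 19595 probes detected on at least 3 arrays entered 1 limma model (lmFit, eBayes) with 4 group means, and the Benjamini-Hochberg adjustment ran over these probes, the threshold being 0.05. Errors of differences are SE of that model. Of the 45281 probes, the platform annotation gave 34885 with 1 symbol, 18 with several and 10378 with none, and 34807 had a gene ID found in RefSeq (assembly GRCm38.p6), from which gene coordinates come. Per-sample columns of other series numbered 0. Signals in the series table and the single-array tables differed by at most 0.

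All member probes were named. From each other crest list the 3 genes with the smallest unadjusted p in each averaged comparison were named, at the gene's brightest tested probe, with the 3 most alike genes per member and the 3 brightest genes of each marker list. The members and lists were chosen with earlier results of these data known, and comparisons that share a group of embryos are not independent. Array sets were split at the largest gap in the median bead coefficient of variation over probes with signal over 500. Before use, the model was run on simulated data with independent noise and changes planted in all knockouts. The fitted averaged genotype differences followed the planted ones. Diet effects, effects within a diet and variation shared between arrays were not simulated. The number of arrays limits the precision.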

Additional observations from a re-analysis of the deposited data

How the results depend on the processing

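Member counts past the adjusted threshold stayed at 0 in all 7 comparisons under the alternatives run, with the exception of array weights. With limma's array weights, 3 member probes passed for diet averaged over genotypes (Sox10 −1.57, dimmer Sox9 −1.03, Zic1 −0.80), 3 for genotype on the high-fat diet (Sox10 −2.35, brighter Sox9 −0.67, Ets1 −0.67) and 1 for diet in wildtypes. Those weights ran from 0.395 for high-fat knockout replicate 3 to 7.43 for high-fat wildtype replicate 2, and they also moved the calls over all probes to 120 for genotype averaged over diets, against 14, and for diet averaged over genotypes to 6128, against 0. They gave 1325 for genotype on the high-fat diet, against 3, 1466 for diet in wildtypes, against 0, 218 for diet in knockouts, against 0, and 16 for genotype on the control diet, against 8. The cause was not tested. Testing only probes detected on all 12 arrays left 4 for the averaged genotype effect, 0 with high-fat mothers and 2 with control mothers. Of 868 alternative values for 40 pairs of a member probe and a comparison, 825 kept direction and side, 6 passed the threshold and 37 changed sign, the last at values of at most 0.44 in size. The changes of sign were in Snai1, Msx1 and Twist1, which were near 0 to begin with, and none was in Sox10, Sox9, Ets1 or Zic1 outside the array sets. The dimmer Snai1 probe had −0.053, −0.019 and −0.21 for averaged diet under median scaling, the authors' table and array weights, 0.020, 0.019 and 0.44 for genotype on the high-fat diet, and −0.024, −0.011 and −0.036 for diet in knockouts. For averaged genotype it had 0.010 with the authors' table and 0.27 with array weights. Under median scaling the brighter Snai1 probe had −0.018 and the dimmer Msx1 probe −0.047 for averaged diet, and under array weights the dimmer Msx1 probe had −0.015 for averaged genotype and Twist1 0.018 for diet in knockouts. Leaving out 1 embryo moved the dimmer Snai1 probe between −0.13 and 0.069 (averaged genotype), −0.26 and 0.14 (genotype, high-fat), −0.063 and 0.14 (averaged diet) and −0.089 and 0.10 (diet, knockouts). It moved Twist1 between −0.10 and 0.078 (diet, knockouts) and −0.088 and 0.0029 (averaged diet), and the dimmer Msx1 probe between −0.0011 and 0.20 (averaged diet). Leaving out 1 embryo gave 12 to 19 calls over all probes for averaged genotype, 3 to 8 with high-fat mothers and 3 to 12 with control mothers. Median scaling moved the median over all tested probes for diet in wildtypes to −0.14, against 0.03, and the members negative for averaged diet to 9 of 10, against 6.

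With the description number as a replicate block, 24 probes passed for averaged genotype, 338 for averaged diet, 5 for genotype with high-fat mothers and 9 with control mothers, and the members still numbered 0. With the title number as a block the counts were 7, 4 and 4 for genotype averaged, with high-fat mothers and with control mothers, with the array set added 18, 4 and 9, and with it as a random block 14, 3 and 5 at a consensus correlation of −0.11. The diet effects could not be fitted with the title number as a fixed block, since each number belongs to 1 diet. The array set as a block gave 27, 6 and 17 in the same order. The blocks changed no adjusted call of a member, but some at an unadjusted p under 0.05. With the array set as a block in limma, Ets1 for genotype on the high-fat diet and the brighter Sox9 probe for averaged diet were added. So were the dimmer Sox9 probe for averaged genotype, for diet in wildtypes and for diet in knockouts, and Twist1 for averaged genotype. The numbers were not taken to pair the samples, since not every pair of same-numbered embryos had deviations correlated over 0.1. In the descriptions 13 of 18 pairs did, 6 of 6 for number 1 (0.27 to 0.68) and for number 3 (0.27 to 0.59) but 1 of 6 for number 2. All 4 arrays of number 1 lay in set A and all 4 of number 3 in set B, so number and array set cannot be told apart there. In the titles 2 of 6 pairs did. What these arrays can show is limited by the 3 arrays per group and by signal over background: Foxd3, Msx2, Dlx2 and most Ets1 probes lay at background throughout, and Zic1 did on 8 arrays.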
